A study of Mus musculus with 12 samples.

Results

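The keratin genes were taken as the rows of the deposited gene table whose symbol is Krt followed only by digits, so that the keratin-associated Krtap genes and symbols with a letter, such as Krt6a, were left out. This gave 48 genes of the 24098 in the table, 26 of type I and 22 of type II. Of these, 14 reached 1 FPKM (fragments per kilobase of transcript, scaled to library size, which is a level per length) in at least 1 of the 12 mRNA libraries, and 8 reached 10 FPKM. By the epithelium in which each is best known, 5 of the 48 were simple keratins (Krt7, Krt8, Krt18, Krt19 and Krt20), 17 were keratins of stratified epithelia, 22 were keratins of the hair follicle and nail, and 4 were placed in none of these.

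The libraries followed mouse embryonic fibroblasts (MEFs), which carry a GFP reporter at the Oct4 gene, through reprogramming to pluripotency by retroviral Oct4, Sox2, Klf4 and c-Myc (OSKM). D0 was the MEFs in serum medium before infection and D3 the unsorted culture 3 days after infection. On days 6 and 9 the infected cells were sorted on the fibroblast surface protein Thy-1 into T- and T+ fractions, and on days 12 and 16 on the pluripotency-associated surface antigen SSEA-1 into S+ and S- fractions, with T- and S+ taken by the study as the successful route and T+ and S- as the unsuccessful one. iPSCs were an established reprogrammed line, and mESCs were the embryonic stem cell line D3, a line name and not a day. By the labels, the infected cells, iPSCs and mESCs all grew in FF medium, while the study's methods name other media as well, with serum or serum replacement, for these cells. FF medium holds serum replacement, leukemia inhibitory factor, ascorbic acid, basic fibroblast growth factor and the GSK3 inhibitor CHIR99021, so by the labels D0 also differed from every other library in medium. Each condition had 1 library, so no test between conditions was possible, and every comparison is between libraries. A difference is described as at least 2-fold where log2(FPKM + 1) differed by 1 or more, and the deposited interval of each FPKM value, which was modelled without replicates, stands in for an error.

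Keratins are the intermediate filament proteins of epithelial cells. A filament needs equal parts of a type I and a type II keratin, and a keratin that lacks its partner is normally degraded, so the genes are used in pairs. Krt8 and Krt18 are the pair of single-layered epithelia, of the trophectoderm and of other early embryonic epithelia, with Krt7, Krt19 and Krt20 added in particular tissues. Krt5 and Krt14 are the pair of the basal layer of stratified epithelia, and Krt16 and Krt17 are known from appendages and from wounded or stressed epidermis. Fibroblasts build their filaments mainly from vimentin, and the move from fibroblast to pluripotent cell passes through a gain of epithelial features.

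The genes lie in 2 clusters of the mouse genome (build mm9). Of the 46 keratins placed by the GENCODE annotation, 25 were on chromosome 11 between 99094075 and 100131185, all of type I, and 21 were on chromosome 15 between 101177875 and 101862457, of which 20 were of type II. The exception was Krt18 (chr15:101858647-101862457, forward strand), the type I partner of Krt8 (chr15:101827142-101834773, reverse strand). The starts of these partners were 23874 bases apart and faced away from each other. The 250 bases before the RefSeq start are shown for this pair, for Krt7 and for Krt20, to set the simple pair and another simple keratin of high level beside the lowest, Krt20. Krt19, which had a higher maximum than Krt7, is named only. All are written 5′ to 3′ along the gene, and each matched the mm9 genome exactly, at chr15:101834774-101835023 (reverse strand) for Krt8, chr15:101858397-101858646 (forward strand) for Krt18, chr15:101242584-101242833 (forward strand) for Krt7 and chr11:99299468-99299717 (reverse strand) for Krt20. Capitals mark TATAAA (the TATA box), GGGTG (the core bound by KLF factors) and GGGCGG (the GC box) on either strand, so that CACCC and CCGCCC are matches as well.
Krt8: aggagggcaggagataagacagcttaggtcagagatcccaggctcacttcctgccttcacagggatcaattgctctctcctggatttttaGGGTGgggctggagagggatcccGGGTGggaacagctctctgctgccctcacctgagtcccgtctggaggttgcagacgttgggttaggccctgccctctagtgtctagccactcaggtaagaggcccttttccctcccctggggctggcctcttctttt
Krt18: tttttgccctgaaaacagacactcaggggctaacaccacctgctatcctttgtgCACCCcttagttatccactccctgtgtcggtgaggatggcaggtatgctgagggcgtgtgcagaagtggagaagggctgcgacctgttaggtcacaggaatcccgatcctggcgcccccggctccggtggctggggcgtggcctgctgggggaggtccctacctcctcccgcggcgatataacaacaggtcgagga
Krt7: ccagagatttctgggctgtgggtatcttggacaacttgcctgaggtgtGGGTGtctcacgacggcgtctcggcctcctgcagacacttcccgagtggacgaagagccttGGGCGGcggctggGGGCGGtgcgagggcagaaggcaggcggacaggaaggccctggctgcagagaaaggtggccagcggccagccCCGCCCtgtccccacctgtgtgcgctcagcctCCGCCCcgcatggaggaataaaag
Krt20: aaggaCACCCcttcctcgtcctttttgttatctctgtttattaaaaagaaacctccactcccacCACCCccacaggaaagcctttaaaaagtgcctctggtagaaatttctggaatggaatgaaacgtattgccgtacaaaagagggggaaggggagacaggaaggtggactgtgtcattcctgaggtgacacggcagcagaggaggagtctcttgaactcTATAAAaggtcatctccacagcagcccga

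TATAAA stood 29 bases before the start of Krt20 and in none of the other 3 windows. Krt7 had 4 GGGCGG matches, at 141, 128, 56 and 24 bases before its start, which lies inside the longer GENCODE gene. RefSeq windows (table build GRCm38.p6) were found for 34 of the 48 keratins and for 10 of the 14 that reached 1 FPKM. TATAAA was in 1 of these 10 and in 15 of the other 24, against 12.4% of all 32851 windows in the table. GGGTG was in 9 of the 10 and 17 of the 24, against 52.0% of all windows, and GGGCGG in 1 of the 10 and 1 of the 24, against 32.7%. TGANTCA (the AP-1 site) was found only at Krt13 among the 34 genes, against 6.75% of all windows, and CACGTG (the E-box) at 1 of the 10, Krt23, and 2 of the 24, against 6.02%. A match is a run of letters in this window and says nothing on binding.

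The libraries carried the markers of their labels. Thy1 was at 669 FPKM in D0, 477 in D6T+ and 491 in D9T+ against 3.24 in D6T- and 3.72 in D9T-. The summed level of 8 fibroblast genes, led by Col1a1, Col1a2 and Col3a1, was 7593 FPKM in D0, 506 in D16S- and 38.0 in D16S+, and that of 6 pluripotency genes, led by Dppa5a, Tdgf1 and Esrrb, was 1.88, 111 and 4387 FPKM in the same order. The deposited values do not state the depth. The steps between the values of low genes put the other libraries at 0.967 to 1.56 times the depth of D0. The smallest keratin value above 0 in a library lay between 0.00983 and 0.0273 FPKM, so a keratin listed at 0 was not detectable at this depth.

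The keratins that reached 1 FPKM were all 5 simple keratins, 6 of the 17 stratified keratins (Krt5, Krt13, Krt14, Krt16, Krt17 and Krt79) and 3 others (Krt23, Krt42 and Krt80). None of the 22 genes classed as hair follicle and nail keratins did so: the highest was Krt71 at 0.198 FPKM in mESCs, and 5 of them were listed at 0 in every library. This depends on the placement of Krt42 among the others, since it is also described in the nail and was at 6.99 FPKM in mESCs. Just above the level stood Krt23 with 1.20 FPKM in D9T+, Krt5 with 1.64 in D16S- and Krt79 with 1.78 in D6T-. Just below it stood the epidermal keratins Krt1 with 0.879 in D9T- and Krt10 with 0.826 in D0, and the corneal keratin Krt12 with 0.586 in D6T-. Of the 34 that stayed under 1 FPKM, these 3 passed 0.5 FPKM and 10 in all passed 0.1 FPKM. The number of keratins at 1 FPKM or more was 3 in D0, between 9 and 12 in D3, in the sorted fractions and in iPSCs, and 6 in mESCs.

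**Figure D1:**
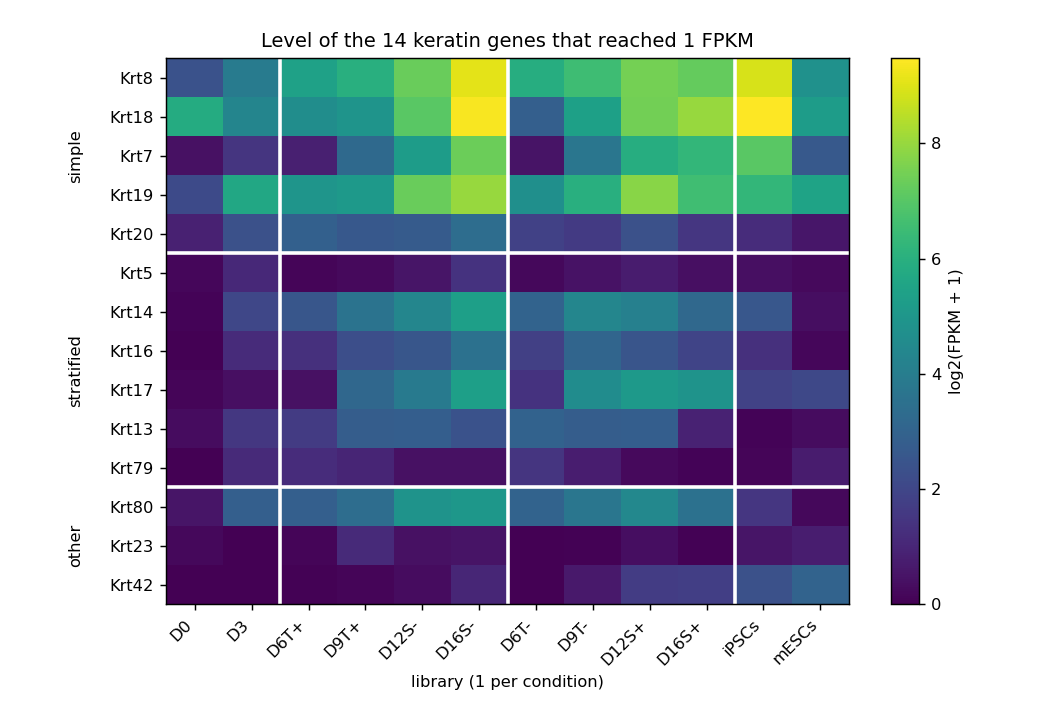
Level of the 14 keratins that reached 1 FPKM, as log2(FPKM + 1) by colour, with genes in rows (simple, stratified, other) and the 12 libraries in columns, 1 library per condition. The simple keratins Krt8, Krt18 and Krt7 are brightest in D16S- and iPSCs, and Krt19 in D16S- and D12S+. Of the stratified keratins, Krt5, Krt14, Krt16 and Krt17 are brightest in D16S-, and Krt13 and Krt79 in D6T-.

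Krt8, the type II keratin of simple epithelia, had its lowest level in the fibroblasts and was among the highest keratins of the iPSCs. It was at 4.22 FPKM in D0 and 14.5 in D3. On the successful route it was at 58.9 in D6T-, 92.5 in D9T-, 180 in D12S+ and 149 in D16S+, and on the unsuccessful one at 42.1 in D6T+, 61.5 in D9T+, 159 in D12S- and 543 in D16S-. It was at 483 FPKM in iPSCs and 26.7 in mESCs. The highest and second highest libraries were thus D16S- and iPSCs, and on days 6, 9 and 12 both fractions of a day were within 2-fold of each other. The deposited interval ran from 0 to 11.4 FPKM in D0, from 8.30 to 290 in D16S+ and from 0 to 1141 in D16S-, so the intervals of these libraries overlapped.

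Krt18, the type I partner, followed another course at first. It was the highest keratin of D0 with 56.5 FPKM, and was at 18.6 in D3 and 6.21 in D6T-, its lowest level. On the successful route it was then at 40.8 in D9T-, 175 in D12S+ and 259 in D16S+, and on the unsuccessful one at 23.8 in D6T+, 29.0 in D9T+, 132 in D12S- and 664 in D16S-. Its highest level was 711 FPKM in iPSCs, where it ranked 98 among all 24098 genes, and it was at 36.5 in mESCs. Krt18 was therefore lower than in the fibroblasts in the D3 library and in the 4 fractions of days 6 and 9, and higher in the 4 fractions of days 12 and 16 and in iPSCs. The interval was 2.04 to 111 FPKM in D0 and 0 to 17.6 in D6T-.

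**Figure D2:**
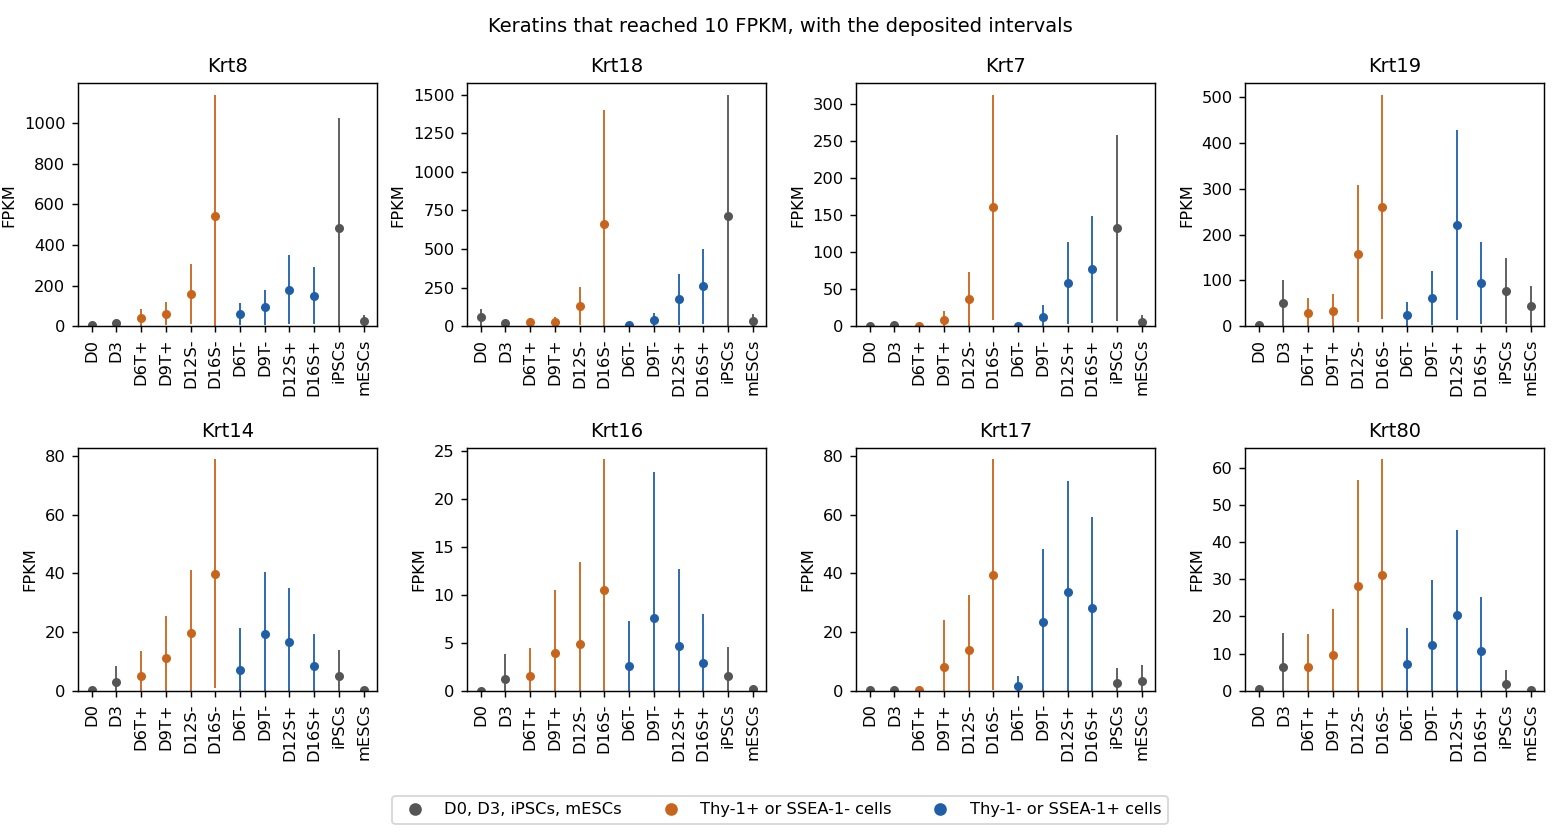
FPKM of the 8 keratins that reached 10 FPKM, one panel each with its own linear axis from 0, by library (grey D0, D3, iPSCs and mESCs, orange T+ and S-, blue T- and S+). Points are the deposited values and bars the deposited intervals, which span about as much below and above each point as its own value; 7 of the 8 genes have their highest point in D16S-, and Krt18 in iPSCs.

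Since Krt8 and Krt18 form 1 filament, their ratio was followed. Krt8 over Krt18 in FPKM was 0.0746 in D0 and 0.775 in D3. It was 9.48 in D6T- against 1.76 in D6T+, and 2.27 in D9T- against 2.12 in D9T+. It came to 1.03 in D12S+, 1.21 in D12S-, 0.576 in D16S+, 0.818 in D16S-, 0.680 in iPSCs and 0.732 in mESCs. The RNA levels of the partners were thus far apart in D0, where Krt18 was in excess, and in D6T-, where Krt8 was. In the other 10 libraries the larger of them was at most 2.27 times the smaller. The deposited intervals of Krt8 and Krt18 still overlapped in D0, at 0 to 11.4 and 2.04 to 111 FPKM. They also overlapped in D6T-, at 3.64 to 114 and 0 to 17.6 FPKM. Over all keratins, the summed type II over the summed type I FPKM was lowest in D0 at 0.0841, highest in D6T- at 1.29 and between 0.307 and 0.827 in the other 10 libraries. Without Krt18 the ratio in D0 was 0.912 and that in iPSCs 6.71, and it passed from below to above 1 in 6 libraries (D6T+, D9T+, D12S-, D16S+, D16S- and iPSCs). Both partners have near-copies elsewhere in mm9, at chr7:24142113-24143830 for Krt8 (98.7% identity over 96.0% of the transcript) and at chr13:118246579-118247933 for Krt18 (92.1% over 98.9%). Reads that matched more than 1 place were removed before counting, so the level of Krt8 in particular is uncertain, and so is the size of the ratio. A difference in this ratio between libraries compares the same loci.

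**Figure D3:**
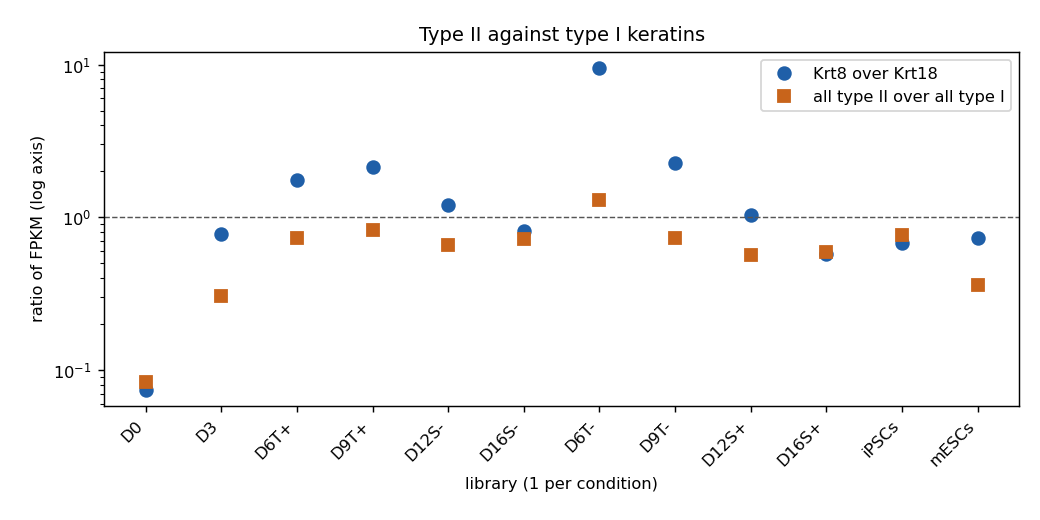
Ratio of FPKM on a log axis by library, for Krt8 over Krt18 (circles) and for the sum of all type II over all type I keratins (squares), with the dashed line at 1. Both ratios are lowest in D0, at 0.0746 and 0.0841, and highest in D6T-, at 9.48 and 1.29.

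Krt7, a type II keratin of ducts and of trophectoderm, was low until day 6. It was at 0.352 FPKM in D0, 1.73 in D3, 0.409 in D6T- and 0.787 in D6T+. It was at 12.2 in D9T- and 8.39 in D9T+, at 58.6 in D12S+ and 36.9 in D12S-, and at 76.8 in D16S+ and 161 in D16S-. It was at 133 FPKM in iPSCs and 5.22 in mESCs. Krt7 was the only keratin whose deposited interval lay wholly above that of D0 in D16S+ (4.34 to 149 against 0 to 1.23 FPKM) and in iPSCs (6.85 to 259).

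Krt19, a type I keratin of simple epithelia and of progenitor cells, was already high on day 3. It was at 3.39 FPKM in D0 and 51.0 in D3. It was at 25.1 in D6T- and 29.4 in D6T+, at 62.0 in D9T- and 33.0 in D9T+, at 221 in D12S+ and 158 in D12S-, and at 94.2 in D16S+ and 261 in D16S-. It was at 76.6 in iPSCs and 43.6 in mESCs, where it was the highest keratin. In the order of libraries D3 stood above both day 6 fractions and above D9T+. Krt20, known from intestinal epithelium and urothelium, stayed low, between 0.475 FPKM in mESCs and 9.49 in D16S-, with 0.825 in D0 and 4.09 in D3. Unlike the other 4 simple keratins it was lower in the T- or S+ fraction than in its counterpart on all 4 days, at 2.52 against 6.48 FPKM on day 6 and 1.84 against 9.49 on day 16.

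Except for Krt10, at 0.826 FPKM in D0, the stratified keratins were at or near 0 in the fibroblasts. In sum they stayed under the simple ones in every library. Krt14, the type I keratin of basal keratinocytes, was at 0.0609 FPKM in D0 and 3.01 in D3. It was at 7.10 in D6T- and 4.82 in D6T+, at 19.2 in D9T- and 11.2 in D9T+, at 16.4 in D12S+ and 19.6 in D12S-, and at 8.24 in D16S+ and 39.9 in D16S-. It was at 4.95 in iPSCs and 0.266 in mESCs. Along the T- and S+ fractions Krt14 was highest on day 9, and along the T+ and S- fractions on day 16. Its usual partner Krt5 did not follow: it passed 1 FPKM only in D3 with 1.16 and in D16S- with 1.64, and Krt14 over Krt5 was 49.4 in D6T- and 24.3 in D16S-. About 56.3% of the Krt14 transcript matched a stretch of chromosome 11 that includes Krt16 at 90.3% identity, and Krt16 had a near-copy at chr11:100090017-100093394 (96.3% over 71.1%), so reads of these genes may be split or removed.

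Krt16, the stress keratin, was not detected in D0 and had 1.24 FPKM in D3. It was at 2.52 in D6T- and 1.47 in D6T+, at 7.55 in D9T- and 3.89 in D9T+, at 4.63 in D12S+ and 4.84 in D12S-, and at 2.83 in D16S+ and 10.5 in D16S-. It was at 1.49 in iPSCs and 0.126 in mESCs. Krt6a, a type II partner of Krt16 that the symbol rule left out, was at 4.05 FPKM in D3 and at most 5.23, in D9T-, and is one of 11 genes that share 1 merged locus in the table. Krt6b, Krt33a and Krt33b stayed under 1 FPKM. Across the 12 libraries Krt16 was the keratin most like Krt14 among those that reached 1 FPKM under the symbol rule. Its Pearson r of 0.987 on log2(FPKM + 1) is given as a description, since libraries may share cultures and the 2 genes share sequence. Krt17, a type I keratin of appendages and wounded epidermis, had a later start, at 0.101 FPKM in D0, 0.316 in D3, 1.62 in D6T- and 0.348 in D6T+. It was then at 23.2 in D9T- and 7.91 in D9T+, at 33.7 in D12S+ and 13.9 in D12S-, and at 28.3 in D16S+ and 39.6 in D16S-. It was at 2.69 in iPSCs and 3.11 in mESCs. Between D12S+ and D16S+ Krt17 thus differed little, where Krt14 and Krt16 were lower in D16S+.

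Krt13, a type I keratin of internal stratified epithelia, was highest early, with 6.80 FPKM in D6T- against 2.10 in D6T+. It lay between 5.95 and 6.11 in the 4 fractions of days 9 and 12, at 0.885 in D16S+ and 4.27 in D16S-, and at 0.0723 in iPSCs. Krt79, known from the hair canal, was at 1.18 in D3, 1.78 in D6T- and 1.33 in D6T+, and under 1 FPKM in the other 9 libraries. Of the 6 stratified keratins that reached 1 FPKM, Krt13 and Krt79 had their highest level in D6T-.

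Of the keratins in none of the 3 classes, Krt80, a type II keratin of many epithelia, was at 0.452 FPKM in D0 and already at 6.34 in D3. It was at 7.07 in D6T- and 6.30 in D6T+, at 12.3 in D9T- and 9.52 in D9T+, at 20.4 in D12S+ and 28.1 in D12S-, and at 10.7 in D16S+ and 31.2 in D16S-. In iPSCs it was at 1.86 and in mESCs at 0.165, so its course resembled that of Krt14. Krt42, a type I keratin described in the nail, had another pattern. It was listed at 0 in D0, D3 and D6T-, was at 2.18 in D12S+ against 0.245 in D12S-, at 2.34 in D16S+ against 1.02 in D16S-, at 4.09 in iPSCs and highest in mESCs with 6.99. Krt42 was the one keratin of the 14 with its highest level in mESCs. Krt23 reached 1 FPKM only in D9T+.

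Summed by class, the simple keratins stood at 65.3 FPKM in D0, 89.9 in D3, 93.1 in D6T- and 103 in D6T+. They came to 210 in D9T- and 137 in D9T+, to 639 in D12S+ and 491 in D12S-, and to 581 in D16S+ and 1638 in D16S-. Their sum was 1405 in iPSCs and 113 in mESCs. The simple keratins were thus higher on day 12 than on day 9 on both routes, and on day 16 were higher again only in the S- fraction, by 3.34-fold. The stratified keratins summed to 1.42 FPKM in D0, 10.0 in D3, 21.3 in D6T-, 11.3 in D6T+, 59.0 in D9T- and 31.1 in D9T+. They came to 63.4 in D12S+, 46.4 in D12S-, 41.7 in D16S+, 97.7 in D16S-, 10.1 in iPSCs and 5.42 in mESCs. Without Krt17 the stratified sum was lower in D12S+ than in D12S-, at 29.7 against 32.5 FPKM. With it, simple over stratified was lowest in D9T- at 3.55 and highest in iPSCs at 139. All 48 keratins together made up 0.0104% of the summed FPKM of D0, 0.131% in D16S+, 0.337% in D16S-, 0.260% in iPSCs and 0.0213% in mESCs. In bulk libraries a larger share of keratin-bearing cells and more keratin RNA per cell cannot be told apart.

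**Figure D4:**
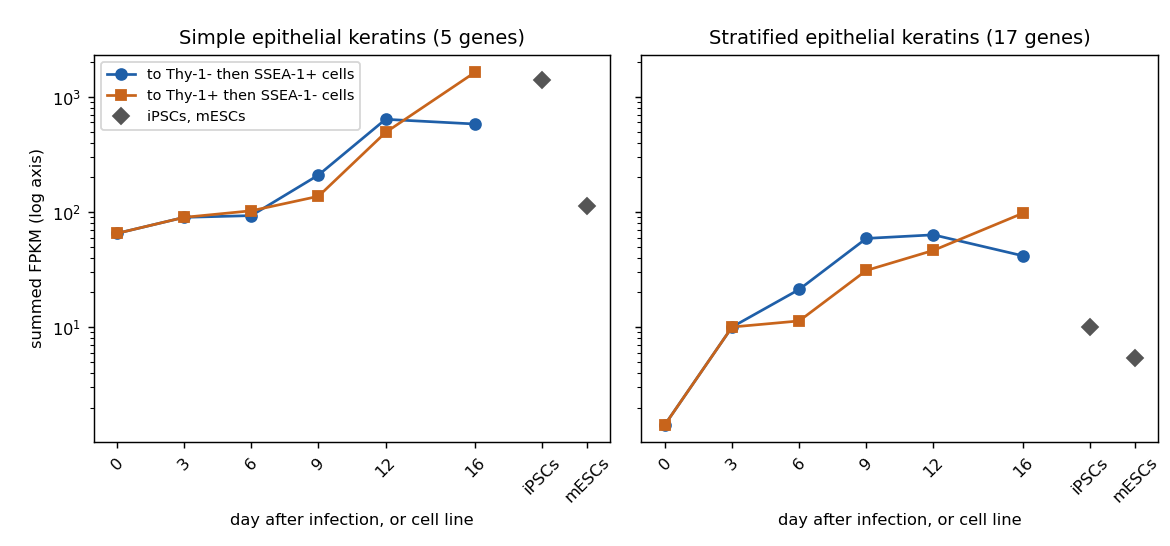
Summed FPKM on a shared log axis against the day after infection, for the 5 simple keratins (left) and the 17 stratified keratins (right), in the T- and S+ libraries (blue), the T+ and S- libraries (orange), and iPSCs and mESCs (grey, placed after day 16). Lines join libraries in day order and need not follow 1 culture. On day 16 the S- library lies above the S+ library in both panels, at 1638 against 581 and 97.7 against 41.7.

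Against the fibroblasts, most of the 14 keratins were at least 2-fold higher in each later library compared, and Krt18 was the exception of the first days. The 5 comparisons with D0 share that library, so they are given one by one. D3 over D0 had 9 of the 14 keratins at least 2-fold higher, against 5.76% of the 14178 genes that reached 1 FPKM in some library, and 1 lower, Krt18, against 8.67%. The largest of these differences was that of Krt19. D6T- over D0 had 8 higher against 9.42% and 1 lower, again Krt18, against 14.5%. Simple keratins gave 2 of these 8, Krt8 and Krt19, and stratified keratins 5 (Krt13, Krt14, Krt16, Krt17 and Krt79). Since a gene that stayed under 1 FPKM everywhere cannot differ 2-fold on this scale, each count is also the count over all 48. Only 3 keratins reached 1 FPKM in D0, so the rest of the 14 were kept through other libraries, where they were higher. That they exceeded D0 was thus partly fixed by this choice, and the counts against D0, here and below, are descriptions only.

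On day 16 more keratins were higher than in the fibroblasts in the S- than in the S+ fraction. D16S+ over D0 had 9 of the 14 at least 2-fold higher, against 20% of all genes, and 0 lower against 20.9%. D16S- over D0 had 12 higher, against 12.8%, and 0 lower against 11.4%, and the 2 that were neither were Krt23 and Krt79. The median difference in log2(FPKM + 1) over the 14 was 2.06 for D16S+ and 3.53 for D16S-, where the medians over all genes were 0.05 and 0.00. For the 5 simple keratins it was 4.44 and 5.90, and for the 6 stratified ones that reached 1 FPKM 1.27 and 2.81. iPSCs over D0 had 8 higher, against 18.7%, and 0 lower against 21.6%. Over the 11 comparisons made, 5 of the 154 pairs of gene and comparison had deposited intervals that did not meet. These were Krt7 in D16S+ over D0 (1 of 14, against 0.896% of all genes), Krt7, Krt14 and Krt19 in D16S- over D0 (3 of 14, against 0.388%) and Krt7 in iPSCs over D0 (1 of 14, against 0.987%). No keratin had intervals apart in D3 over D0 (0.134% of all genes), D6T- over D0 (0.268%), D16S+ over D16S- (0.0141%) or iPSCs over D16S+ (0.0282%), nor in the other 4 comparisons, where none of the 14178 genes had.

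Between sorted fractions of the same day, fewer of the 14 keratins differed at least 2-fold on days 6, 9 and 12 than on day 16. D6T- over D6T+ had 1 of the 14 at least 2-fold higher, Krt13, against 2.93% of all genes, and 2 lower, Krt18 and Krt20, against 9.47%. D9T- over D9T+ had 1 higher, Krt17, against 1.81%, and 1 lower, Krt23, against 6.45%. Krt23 reached 1 FPKM only in D9T+ and was kept through that library, so its lower level in D9T- was partly fixed by this choice. D12S+ over D12S- had 2 higher, Krt17 and Krt42, against 4.79%, and 0 lower against 3.03%. D16S+ over D16S- had 0 higher, against 11.8%, and 10 lower against 15.2%, namely all 5 simple keratins, Krt5, Krt13, Krt14, Krt16 and Krt80. On day 16 the difference in log2(FPKM + 1) was -1.86 for Krt8, -1.35 for Krt18, -1.06 for Krt7, -1.46 for Krt19 and -2.15 for Krt14. Krt17 stood apart from Krt14 and Krt16 in this, with 0.96, 1.44 and 1.22 on days 6, 9 and 12 and -0.47 on day 16. Krt8, with 0.48, 0.58, 0.18 and -1.86, was among the keratins that were higher in the T- or S+ fraction on the first 3 sorted days and lower on the last. Krt42 was the only one of the 14 that was higher in the S+ than the S- fraction on day 16, by 0.73. Whether one day differed from another could not be tested with 1 library per fraction.

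**Figure D5:**
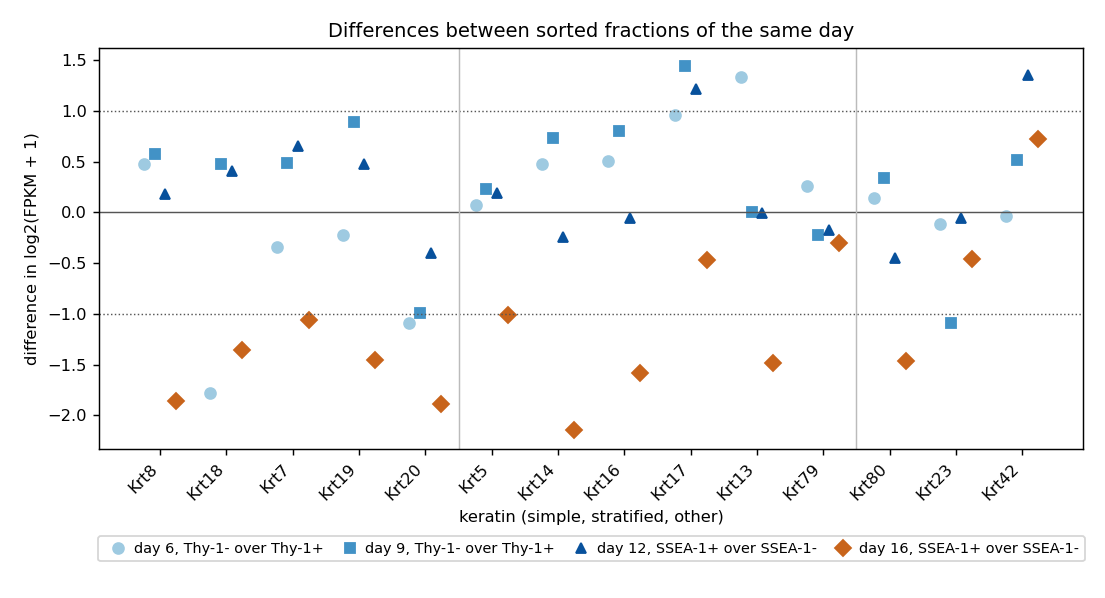
Difference in log2(FPKM + 1) between the sorted fractions of 1 day, T- over T+ (days 6 and 9) and S+ over S- (days 12 and 16), for the 14 keratins that reached 1 FPKM, with dotted lines at a 2-fold difference. Day 16 (orange diamonds) lies below 0 for 13 of the 14 keratins, from -2.15 for Krt14 to -0.30 for Krt79, while Krt42 lies above 0 at 0.73.

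The iPSCs kept the simple keratins and had little of the stratified ones. iPSCs over D16S+ had 2 of the 14 at least 2-fold higher, Krt8 and Krt18, against 4.38% of all genes, and 2 lower, Krt17 and Krt80, against 7.77%. The summed simple keratins were 2.42-fold higher in iPSCs than in D16S+, and the summed stratified ones 4.13-fold higher in D16S+. Between the pluripotent lines, iPSCs over mESCs had 6 higher (Krt7, Krt8, Krt14, Krt16, Krt18 and Krt80), against 6.79%, and 0 lower against 7.41%. The simple keratins summed to 12.5-fold more in iPSCs than in mESCs, with Krt8 at 483 against 26.7 FPKM, Krt18 at 711 against 36.5 and Krt7 at 133 against 5.22. The lines were handled as 1 library each, differ in origin, and had overlapping intervals for every keratin.

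Vimentin RNA was lower than in the fibroblasts in every sorted library, and on each day lower in the T- or S+ fraction than in its counterpart. Vim, the vimentin gene of fibroblast filaments, was at 3641 FPKM in D0, 3905 in D3, 1427 in D6T- and 2953 in D6T+. It was at 188 in D16S+ but 2267 in D16S-, and at 128 in iPSCs and 245 in mESCs. Vim over the summed keratins was 54.0 in D0, 0.295 in D16S+, 1.28 in D16S- and 0.0897 in iPSCs. The D16S- library thus had the highest keratin sum of all 12 together with more vimentin RNA than any T- or S+ library. Of the 14 other intermediate filament genes that reached 1 FPKM, 4 were at least 2-fold higher and 6 lower in D16S+ over D0, against 20% and 20.9% of all genes. In D16S- over D0 2 were higher and 2 lower, shares near the 12.8% and 11.4% of all genes. The nuclear lamin genes differed in direction, with Lmna at 743 FPKM in D0, 98.9 in D16S+ and 388 in D16S- and Lmnb1 at 31.9, 115 and 26.4.

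Genes whose proteins tie keratin filaments to desmosomes and hemidesmosomes were partly higher than in the fibroblasts. Of 12 such genes, all of which reached 1 FPKM, 5 were at least 2-fold higher and 0 lower in D3 over D0, against 5.76% and 8.67% of all genes. In D16S+ over D0 7 were higher and 1 lower, against 20% and 20.9%, and in D16S- over D0 9 were higher and 0 lower, against 12.8% and 11.4%. Itgb4, the hemidesmosome integrin chain, was at 1.53 FPKM in D0, 27.9 in D3, 211 in D12S-, 27.4 in D16S+ and 185 in D16S-. Plec (plectin), a cytolinker of fibroblasts as well, was highest in D0 at 140 FPKM and was at 22.6 in D16S+, while Jup (plakoglobin) was between 36.7 and 111 in all 12 libraries. In D16S+ over D16S- 0 of the 12 were higher and 3 lower, against 11.8% and 15.2% of all genes.

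Genes of the cornified envelope, the outer shell of differentiated keratinocytes, were led by Sbsn, Sprr1a and Krtdap. Of the 9 that reached 1 FPKM, 6 were at least 2-fold higher and 0 lower in D3 over D0, against 5.76% and 8.67% of all genes. In D16S+ over D0 4 were higher and 2 lower, against 20% and 20.9%, the number lower being near the share of all genes. In D16S- over D0 6 were higher and 0 lower, against 12.8% and 11.4%. Sbsn was at 16.0 FPKM in D0, 203 in D6T+, 54.9 in D6T-, 129 in D16S- and 19.1 in D16S+. Krtdap was at 0.155 in D0, 101 in D6T+, 42.5 in D6T-, 68.2 in D16S- and 14.6 in D16S+, and Sprr1a at 42.4, 126, 13.4, 36.3 and 16.1 in the same order. D16S+ over D16S- had 0 of the 9 higher and 8 lower, against 11.8% and 15.2% of all genes. Unlike the stratified keratins, which were higher in D6T- than in D6T+ in sum, these 3 genes were higher in D6T+.

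Of the transcription and splicing factors of epithelial identity, 10 reached 1 FPKM. Of these, 9 were at least 2-fold higher and 0 lower in D16S+ over D0, against 20% and 20.9% of all genes, and 9 and 0 in D16S- over D0, against 12.8% and 11.4%. In D16S+ over D16S- 3 were higher and 1 lower, against 11.8% and 15.2%, and the difference from the keratins was not tested. Elf3 was at 0.273 FPKM in D0, 108 in D12S+, 82.4 in D16S+, 56.6 in D16S- and 91.7 in mESCs. Klf5 was at 11.6 in D0, 45.2 in D16S+, 13.1 in D16S- and 90.3 in iPSCs, and Esrp1, an epithelial splicing factor, at 0.0120, 32.7, 5.31 and 10.2. Trp63, the master regulator of stratified epithelia, was at most 0.653 FPKM, in D6T-.

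Markers of cell types that carry keratins moved with some of these levels, and their part in the result was not tested. For keratinocytes, 3 of 6 markers reached 1 FPKM (Sbsn, Krtdap and Ivl, all 3 also cornified envelope genes), with a sum of 10.4 FPKM in mESCs to 309 in D6T+, while Trp63, Lor and Dsg3 stayed under 1 FPKM and Dsg3 was listed at 0 in 2 libraries. For mesothelium, which carries Krt8, Krt18 and Krt19, 4 of 5 markers reached 1 FPKM. Their sum was 39.2 FPKM in D0, 143 in D16S+, 1053 in D16S-, 13.7 in iPSCs and 6.80 in mESCs, almost wholly from Msln (1051 in D16S-), while Upk3b, Wt1 and Lrrn4 were at 0.389, 0.904 and 0.551 FPKM in D16S- and Gpm6a was listed at 0 in 6 libraries.

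For trophectoderm, which carries Krt7, Krt8, Krt18 and Krt19, all 6 markers reached 1 FPKM, and their sum was 1.45 FPKM in D0, 84.6 in D16S+, 49.3 in D16S-, 47.2 in iPSCs and 33.8 in mESCs. The most abundant were Tfap2c (65.7 in D16S+ and 19.2 in D16S-), Hand1 (10.7 and 24.2) and Gata3 (2.63 and 3.24), and Cdx2 was at 0.350 and 0.391 FPKM in these fractions, 2.71 in iPSCs and listed at 0 in 5 libraries. For endoderm, 3 of 6 markers reached 1 FPKM (Gata4, Gata6 and Sox17), the sum lay between 1.03 FPKM in D9T- and 21.8 in mESCs, and Ttr was listed at 0 in 9 libraries. Of these 4 lists, those for keratinocytes and mesothelium had a larger sum in D16S- than in D16S+, as the keratins did. Those for trophectoderm and endoderm had a smaller sum. The mesothelium sum was led by Msln, at 138 FPKM in D16S+ and 1051 in D16S-. Upk3b (0.161 and 0.389) and Gpm6a (0.0324 and 0.0651) had the same direction at low levels. Wt1 (1.99 and 0.904) and Lrrn4 (2.63 and 0.551) went the other way. The trophectoderm sum was led by Tfap2c, which was higher in D16S+, as was Eomes (4.41 FPKM against 1.23 in D16S-). The other trophectoderm markers, Hand1, Gata3, Cdx2 and Elf5 (0.823 in D16S+ and 1.11 in D16S-), were higher in D16S-, as the keratins were.

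The genes outside the keratin family whose course across the 12 libraries was most like that of Krt8 on log2(FPKM + 1) included Epn3 (Pearson r of 0.951), Cldn3 (0.927), Tgm1 (0.917) and Chit1 (0.910). Cldn3 encodes a tight junction claudin and Tgm1 a crosslinking enzyme of the cornified envelope. Among the keratins themselves Krt7 was nearest to Krt8 with 0.881, followed by Krt19 with 0.834, while its partner Krt18 gave 0.712. The genes most like Krt14, the highest of the stratified keratins, were Lama3 (0.953), Mbp (0.950), Fgfbp1 (0.950), Lemd1 (0.949) and Dos (0.948), and among keratins Krt16 with 0.987 and Krt80 with 0.942. Lama3 encodes a laminin chain of the epidermal basement membrane. Whether libraries of neighbouring days share a culture history is not known, and these values describe 12 libraries only.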

How the data were processed

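Poly(A) RNA was sequenced from 12 libraries, 1 per condition. According to the labels and the study's methods, the authors aligned reads to mm9 with STAR, removed reads with more than 2 mismatches or several positions, and computed gene FPKM with Cuffdiff (versions not given in the sources used here). The deposited FPKM values were used with their modelled intervals; 12 status columns held no measurement and were not used. The labels name a stranded mRNA kit and the methods an unstranded one, so whether overlapping antisense reads were separated is not known. The deposited FPKM values give no depth, so precision is taken from the intervals, whose median one-sided width was 101% of the value for the 55 keratin values of at least 10 FPKM.

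Values were compared as log2(FPKM + 1) in Python 3.11.15 with pandas 2.3.3 and numpy 2.4.6. A difference of at least 2-fold was counted over the 14178 of 24098 genes with 1 FPKM or more in at least 1 library. Such a fold understates the difference of low genes. With 1 library per condition no p-value was computed. The counting was tested on simulated data. Every keratin that reached 1 FPKM is named, those that reached 10 FPKM with their values by library, and from each accompanying list the 3 genes with the highest FPKM in any library, plus Thy1. Other names, such as Trp63, Cdx2 and the markers at or near 0, were chosen after their values were seen. The 5 genes most like Krt8 and Krt14 were taken by Pearson r, of which 1 is not reported here. Near-copies were searched with minimap2 2.31 (at least 90% identity over at least 50% of the transcript). The keratins, classes and gene lists were chosen with earlier results of these data known. Alternatives were other FPKM levels, pseudocounts, scalings, filters and folds, and leaving out the top keratin.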

Additional observations from a re-analysis of the deposited data

Results flagged for a closer look

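Krt13 had differences of opposite direction between sorted fractions. It was at 6.80 FPKM in D6T- and 2.10 in D6T+, a difference in log2(FPKM + 1) of 1.33, and at 0.885 in D16S+ and 4.27 in D16S-, a difference of -1.48. Each fraction is 1 library, the sorting marker was Thy-1 on day 6 and SSEA-1 on day 16, and a difference between day 6 and day 16 was not tested.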

How the results depend on the processing

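Of the 256 recomputed sums, ratios and counts, 213 stayed within the margin of 1.5 times. No paired analysis was possible because each condition has 1 library, and for the same reason no library could be left out of a group. With a level of 0.5 FPKM, D0 had 5 keratins in place of 3, and with 5 FPKM the number was 1 in D0, 4 in D3, 6 in D6T-, 5 in D6T+ and 4 in iPSCs. Without Krt18 the summed simple keratins were 8.78 FPKM in D0, 322 in D16S+, 974 in D16S- and 694 in iPSCs. Type II over type I was then 0.912 in D0, 1.11 in D6T+, 0.904 in D12S+, 1.08 in D12S-, 1.71 in D16S+, 2.01 in D16S-, 6.71 in iPSCs and 0.589 in mESCs, so that it turned from below to above 1 in D6T+, D12S-, D16S+, D16S- and iPSCs, and also in D9T+ (0.827 to 1.17). Without Krt17 the summed stratified keratins were 35.8 FPKM in D9T-, 29.7 in D12S+, 13.4 in D16S+, 58.1 in D16S- and 2.30 in mESCs, and D12S+ turned from above D12S- to below it (32.5). With a fold of 4 the number of keratins higher was 2 in D3 over D0, 5 in D6T- over D0, and 0 in D6T- over D6T+, D9T- over D9T+, D12S+ over D12S- and iPSCs over D16S+. At that fold the number lower was 0 in D3 over D0, D6T- over D6T+ and D9T- over D9T+, and 1 in D16S+ over D16S-. With a pseudocount of 0.1 the number lower was 2 in D3 over D0, D6T- over D0 and D9T- over D9T+, and 1 in iPSCs over mESCs, and the number higher was 2 in D6T- over D6T+ and D9T- over D9T+ and 1 in D16S+ over D16S-. With equal total FPKM in all libraries the number higher was 2 in D6T- over D6T+ and in D9T- over D9T+. With a mean of at least 1 FPKM required, D9T- over D9T+ had 0 lower. Scaling by the median of ratios (factors 1.00 to 1.02) changed no count by over 1.5 times. Of 506 values for single keratins and for shares over all genes, 87 moved, 65 of them with the pseudocount of 0.1 and the other 22 without the filter. The sign turned only for Krt13, where the difference was near 0, in D9T- over D9T+ (0.0081 to -0.00044 with the median of ratios) and in D12S+ over D12S- (-0.0055 to 0.033 with equal totals). Beyond the choice itself, the cause of these shifts was not tested. The interval of a keratin value and the missing replicates limit every comparison.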
